A study of Rattus norvegicus with 180 samples.

Results

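The 5 miRNAs described here were the guide strands rno-miR-23a, rno-miR-23b, rno-miR-24, rno-miR-27a and rno-miR-27b, written here without the species prefix. They were chosen by name out of the 717 miRNAs on a rat miRNA array, and no second array version was listed for any of them. In mammals a single primary transcript carries miR-23a, miR-27a and one copy of miR-24 (the a cluster), and a second transcript carries miR-23b, miR-27b and the other copy of miR-24 (the b cluster). Each hairpin is cut into 2 strands, of which the guide is loaded into Argonaute and the passenger strand is mostly degraded. The family is best known from blood vessel endothelium, from striated and smooth muscle and from developing blood cells.

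Total RNA came from 6 male Sprague-Dawley rats of 10 weeks. Rats 4, 5 and 6 were perfused with saline, and 55 organs were taken from each. Rats 1, 2 and 3 were not perfused and gave 5 of these organs, which were liver, lung, kidney and, from the heart, the cardiac atrium and the interventricular septum (15 of 180 arrays). No transgene or test compound is named in the labels, and every array held RNA of 1 organ of 1 rat. The organs fell into the classes that the study lists, which were smooth or skeletal muscles (14 organs, with skin and the stomach among them), nervous system (11), gland (8), intestines (6), lymphoid or hematopoietic system (5), reproductive system (5) and others (6).

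The sequences, from RefSeq on the GRCr8 assembly, are shown because they hold both ways in which the members are related. The seed, bases 2 to 8 counted from 1 at the 5′ end, is in capitals, and so is the 1 base that differs between an a member and its b counterpart.
miR-23a-3p: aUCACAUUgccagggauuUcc
miR-23b-3p: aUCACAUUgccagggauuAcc
miR-27a-3p: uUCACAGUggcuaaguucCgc
miR-27b-3p: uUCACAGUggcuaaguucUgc
miR-24-3p: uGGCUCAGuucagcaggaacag
miR-24-2-5p: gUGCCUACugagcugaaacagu

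miR-23a and miR-23b shared their seed and differed only by U19A, and miR-27a and miR-27b shared theirs and differed only by C19U. The seeds of miR-23a and miR-27a differed by U7G. miR-24-3p was the same from both loci. The a-cluster hairpins lay on the minus strand at chr19:40859455-40859843, a span of 389 bases that overlapped no other RefSeq gene. The b-cluster hairpins lay on the minus strand at chr17:1818669-1819482, a span of 814 bases overlapped by the RefSeq genes Fancc, Aopep and Mir3074. miR-24-2-5p, named miR-24-2* on the array, is the passenger strand of the a cluster's miR-24 hairpin, so unlike the guide it can come from 1 locus only.

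All 5 members were detected on 180 of 180 arrays, each by 2 probe sequences with 10 spots apiece, and 0 of their spots were saturated. The number of miRNAs detected per array ran from 86 to 244. The 75th percentile to which arrays were scaled ran from 68.0 to 6343 before scaling, with the lowest in pancreas. The liver marker miR-122 had a signal of 107094 in liver and at most 10.8 in any other organ. The 4 leukocyte markers (miR-142-3p, miR-142-5p, miR-150 and miR-223) summed to between 19115 and 35920 in the 5 lymphoid or hematopoietic organs and to at most 3510 elsewhere. Other labels were marked less clearly. The neuronal sum of sciatic nerve (71.7) lay below that of epididymis (123), and the endothelial sum of abdominal aorta (281) lay below those of 50 of the organs other than the vessels. Within 3 organs the array of rat 4 stood apart from those of rats 5 and 6. Its cervical lymph node had an epithelial marker sum (miR-200a, miR-200b, miR-200c and miR-141) of 3156, against 33.3 and 35.3 in rats 5 and 6. Its lumbar spinal cord had a neuronal marker sum (miR-124 and miR-9) of 1234 against 5496 and 2841, and its optic nerve a striated muscle marker sum (miR-1, miR-133a and miR-133b) of 4852 against 24.9 and 27.2. Their effect on the a minus b calls and on the lymphoid and nervous classes is given beside those results.

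The first question was in which organs the a-cluster members were high relative to their b-cluster counterparts. For each array the log2 signal of the b member was subtracted from that of the a member, and the difference was centred on its mean over the 55 organs. A centred value compares organs and says nothing of which of the 2 miRNAs is the more abundant, since they were read by different probes. The difference does not depend on how an array is scaled by a single factor. In lymphoid or hematopoietic organs both a members were high relative to their b counterparts, in 5 of 5 organs, and in brain, spinal cord and optic nerve both were low, in 9 of the 11 nervous system organs. Both differences varied over organs (limma's moderated F test, adjusted p = 6.15e-53 for miR-23 and 3.26e-59 for miR-27, n = 3 rats per organ), as did 100% of the 58 letter pairs on the array. A letter pair is a pair of miRNAs whose names differ only in the letter after the number. Over all letter pairs and organs, 34.2% of single-organ contrasts passed as higher and 35.5% as lower. How often other letter pairs reach such counts within a class, or pass jointly with another pair, was not tested.

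**Figure D1:**
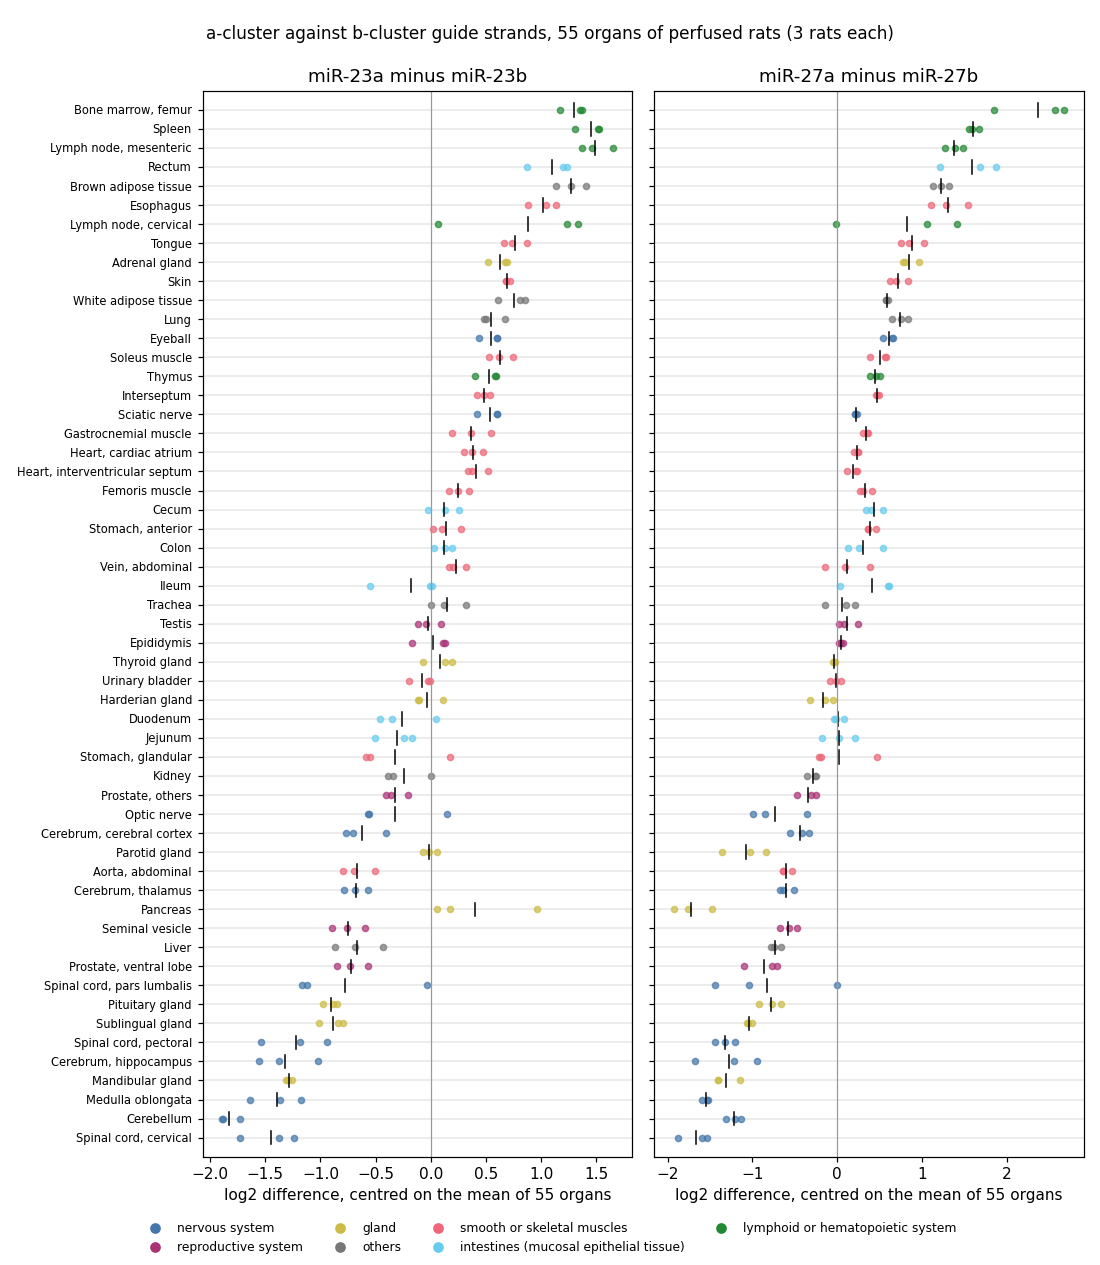
Centred log2 differences of miR-23a minus miR-23b (left) and miR-27a minus miR-27b (right) in 55 organs (rows) of perfused rats. Each dot is 1 rat, coloured by organ class, and the black bar is the mean of 3 rats. Spleen, bone marrow and mesenteric lymph node are high and cervical spinal cord and medulla oblongata low in both panels, and pancreas lies far apart between the panels (0.40 and -1.72).

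For miR-23 the centred difference was highest in mesenteric lymph node (1.65, 1.46 and 1.37 in rats 4, 5 and 6), spleen (1.52, 1.52 and 1.30) and bone marrow (1.35, 1.17 and 1.37). It was lowest in cerebellum (-1.88, -1.73 and -1.89), cervical spinal cord (-1.38, -1.24 and -1.73) and medulla oblongata (-1.37, -1.18 and -1.63). The arrays of the 3 high organs and those of the 3 low ones did not overlap, which is a description only, since these organs were picked by rank. Against the mean of the other 54 organs, miR-23a relative to miR-23b was 2.87-fold higher in mesenteric lymph node (log2 difference 1.52, SE 0.13, adjusted p = 1.22e-20) and 3.65-fold lower in cerebellum (log2 difference -1.87, SE 0.13, adjusted p = 1.59e-26), by limma contrasts adjusted over all letter pairs and organs.

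For miR-27 the centred difference was highest in bone marrow (1.84, 2.56 and 2.67), spleen (1.55, 1.58 and 1.66) and rectum (1.21, 1.67 and 1.87). It was lowest in pancreas (-1.93, -1.48 and -1.76), cervical spinal cord (-1.60, -1.54 and -1.87) and medulla oblongata (-1.53, -1.52 and -1.59). Bone marrow of rats 5 and 6 lay above every array of the other organs, of which the highest reached 1.87, whereas bone marrow of rat 4 did not. The limma contrast gave 5.28-fold in bone marrow (log2 difference 2.40, SE 0.13, adjusted p = 3.20e-35) and 3.38-fold lower in pancreas (log2 difference -1.76, SE 0.13, adjusted p = 6.51e-25).

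The contrast passed the threshold in 40 of 55 organs for miR-23 (21 higher and 19 lower) and in 42 for miR-27 (22 higher and 20 lower). Over all letter pairs and organs 69.7% of contrasts passed (34.2% higher and 35.5% lower), so these counts were near the background. The differences of the 2 families moved alike. In 35 organs both contrasts passed, with 17 higher in both, 17 lower in both and 1, pancreas, in opposite directions. In the lymphoid class all 5 organs were higher in both. In the nervous class 9 of 11 were lower in both, and eyeball was higher in both. Sciatic nerve, a peripheral nerve, was higher for miR-23 (log2 difference 0.55, adjusted p = 8.68e-05) and did not pass for miR-27 (0.22, adjusted p = 0.118). Outside these classes, brown adipose tissue (1.27 and 1.22), rectum (1.10 and 1.58) and esophagus (1.02 and 1.31) had high centred means for both, and mandibular gland (-1.29 and -1.32) and sublingual gland (-0.88 and -1.04) had low ones. Abdominal aorta was lower in both (-0.66 and -0.60), while abdominal vein passed in neither (0.23 and 0.11). Lung and adrenal gland were higher in both, and liver and ventral prostate were lower in both.

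The arrays of rat 4 that stood apart also stood apart here. In cervical lymph node its centred values were 0.06 for miR-23 and -0.01 for miR-27, against 1.34 and 1.24 for miR-23 and 1.41 and 1.06 for miR-27 in rats 5 and 6. In lumbar spinal cord they were -0.03 and 0.00, against -1.17 and -1.13 for miR-23 and -1.45 and -1.05 for miR-27. In optic nerve they were 0.15 and -0.36, against -0.57 and -0.56 for miR-23 and -0.85 and -1.0 for miR-27. The part of the other tissue's markers in these values was not tested. Without the 3 arrays, 44 organs passed for miR-23 and 44 for miR-27, with 5 of 5 lymphoid organs again higher in both and 9 of 11 nervous organs lower in both. Nervous organs higher in both rose from 1 to 2, as sciatic nerve then passed for miR-27 too. The contrasts without the 3 arrays were 1.31 and 1.26 in cervical lymph node, -1.17 and -1.27 in lumbar spinal cord and -0.57 and -0.94 in optic nerve for miR-23 and miR-27.

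Marker sums moved with these differences over the 55 organs. The log2 leukocyte marker sum correlated at r = 0.50 with the miR-23 difference and 0.49 with the miR-27 difference, and that of the red blood cell markers miR-451 and miR-144 at 0.52 for both. The neuronal sum correlated at -0.58 and -0.49. Outside the nervous system the median of this sum was 14.0, the floor for its 2 markers. Its r thus largely sets the nervous organs against the rest. The other lists (endothelium, smooth muscle, striated muscle, epithelium, liver and pancreas) lay between -0.28 and 0.38. These r are descriptions over organ means that share rats, arrays and scaling. In bulk tissue a change in the number of cells of a type and a change of RNA per cell cannot be told apart.

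Over the 55 organ means the miR-23 and miR-27 differences had a Pearson's r of 0.89, and within rats 4, 5 and 6 the r was 0.90, 0.85 and 0.89. The 4 miRNAs were read by separate probes, and the r lay between 0.86 and 0.90 for the 16 combinations of single probe sequences. As background, 45 letter pairs had both miRNAs detected on at least 50% of the arrays. Of the 858 combinations of pairs sharing no miRNA, the median absolute r was 0.22, and 2 combinations exceeded the value of miR-23 with miR-27. The points share arrays, and no test was made of this r.

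**Figure D2:**
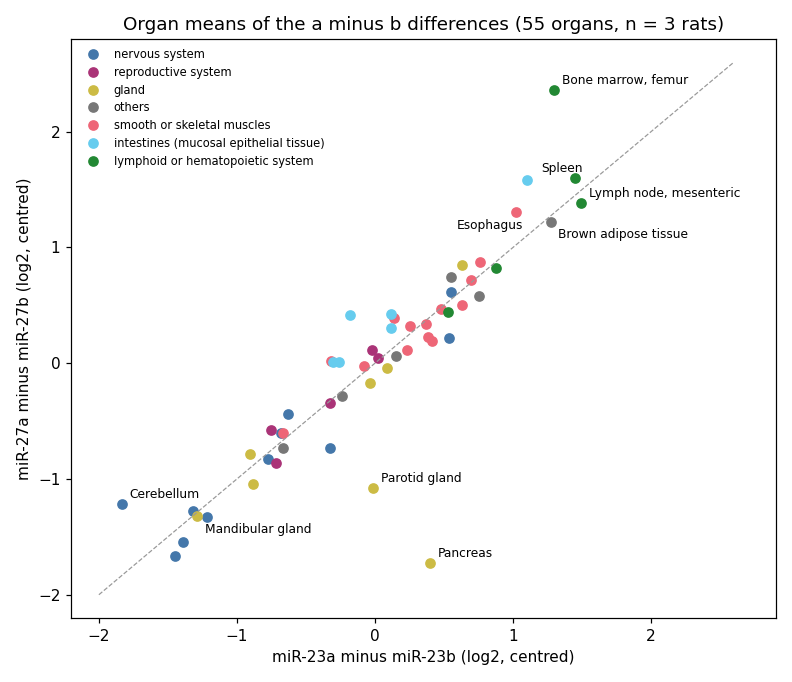
Centred log2 difference of miR-27a minus miR-27b (y axis) against that of miR-23a minus miR-23b (x axis), where each dot is the mean of 3 perfused rats in 1 of 55 organs and the dashed line marks equal values. Most organs lie along the line (r = 0.89), while pancreas, parotid gland and bone marrow lie off it.

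Likeness between members can be read without any array scaling from the SD over organs of their log2 difference. It is small when 2 miRNAs move together, and also when both vary little. This SD was 0.51 for the cluster mates miR-23a and miR-27a and 0.44 for the cluster mates miR-23b and miR-27b. It was 0.78 for miR-23a and miR-23b and 0.89 for miR-27a and miR-27b, which share a seed and all bases but 1. Members that share neither cluster nor seed had 0.75 (miR-23a and miR-27b) and 1.06 (miR-23b and miR-27a). For comparison, the median was 1.89 over the 10296 pairs among the 144 miRNAs detected on at least 50% of perfused arrays. The members themselves varied little, with SD over organs ranked 114 to 135 of these 144 under the scaling used. A value under this median therefore need not mean alike profiles: those of miR-23b and miR-27a had r = 0.12 under that scaling. The order was the same in each rat: the cluster mates had 0.38 to 0.59 and the a and b counterparts 0.77 to 0.97. Among the other 143 miRNAs, miR-27b was the closest to miR-23b and miR-23b the closest to miR-27b. miR-27a was second to miR-23a, after miR-24.

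**Figure D3:**
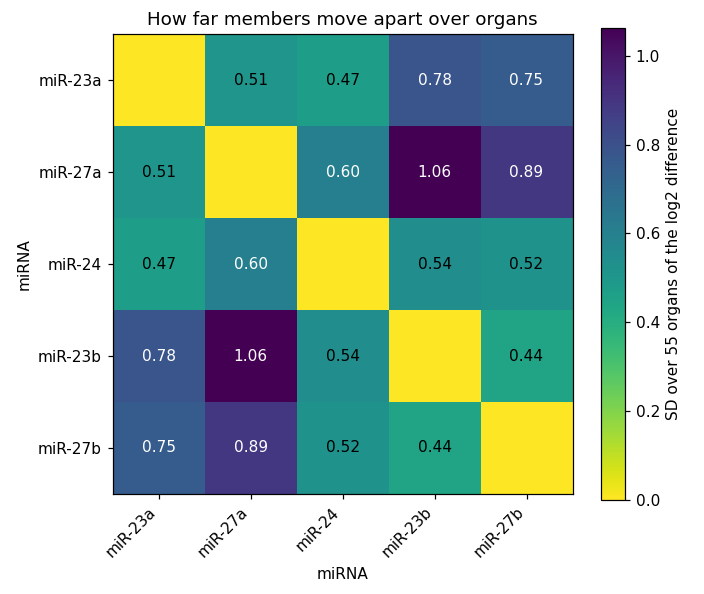
SD over 55 organ means of the log2 difference between 2 members (colour and number), with members on both axes. The blocks of the a cluster (0.51) and of the b cluster (0.44) are lower than the pairs of a and b counterparts (0.78 and 0.89), and miR-24 lies between 0.47 and 0.60 from each member.

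Of the variation by which the 4 lettered members differed from their common level over organs, 74.6% ± 3.46 (SD over 3 rats) lay between the clusters, 20.7% ± 2.96 between the miR-23 and miR-27 families, and 4.77% ± 0.967 in the remainder. A factor per array cannot change these shares. The cluster part was 72.2% with quantile normalization and 74.7% with normexp background correction. As correlations of the profiles themselves, the cluster mates had r = 0.81 in both clusters, and the a and b counterparts 0.49 for miR-23 and 0.31 for miR-27. These r depended on the scaling. Under the 4 other scalings they ran from 0.82 to 0.94 for the cluster mates, from 0.61 to 0.84 for the miR-23 counterparts and from 0.39 to 0.79 for those of miR-27.

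The miR-24 guide, which both loci encode, moved with members of both clusters. The SD of its difference was 0.47 to miR-23a, 0.60 to miR-27a, 0.54 to miR-23b and 0.52 to miR-27b. It was the closest miRNA to miR-23a, and miR-23a the closest to it. The centred difference of miR-24 minus miR-23a was highest in cerebellum (1.62, 1.36 and 1.68), where miR-23a was low. That of miR-24 minus miR-23b was highest in bone marrow (1.78, 2.73 and 3.28), where miR-23b was low, and lowest in cervical spinal cord (-0.79, -0.83 and -1.03).

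Of the 6 passenger strands on the array, miR-24-2* was detected on 40 perfused arrays and miR-23a* on 1. miR-23b*, miR-24-1*, miR-27a* and miR-27b* were detected on 0, so 0 b-cluster passengers could be followed. miR-24-2* was on all 3 arrays of sciatic nerve, rectum, lung, abdominal aorta and urinary bladder, with signals of 33.7, 24.6 and 35.9 in sciatic nerve of rats 4, 5 and 6. Over the 55 organ means its profile had r = 0.87 with miR-23a and 0.81 with miR-27a of its own cluster, and 0.39 with miR-23b and 0.33 with miR-27b. Over the 40 arrays that detected it, r was 0.77, 0.69, 0.23 and 0.42 in the same order. Low signals near the detection limit enter the first set of r, and array scaling is shared by all of them.

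Some organs separated members of 1 cluster. In bone marrow miR-23a was low (1272, 487 and 463 in rats 4, 5 and 6) and miR-27a was not (1672, 1676 and 2118). The centred difference of miR-23a minus miR-27a was -1.62, -3.01 and -3.42 there, below every other array, of which the lowest was -1.11. miR-23b minus miR-27b was also low in bone marrow (-1.13, -1.61 and -2.12), the lowest organ mean but one, although there miR-27b was itself among its lowest. Bone marrow was also where the 2 probe sequences of each member disagreed the most, by 0.23 to 0.64 on the log2 scale relative to other organs, and its miR-23a minus miR-27a value was the lowest of 55 organs for each of the 4 probe combinations (-3.23 to -2.11). In pancreas miR-27b was high relative to miR-23b, with centred differences of -1.67, -2.18 and -1.78 for miR-23b minus miR-27b, the lowest organ mean of all and again the lowest for each probe combination. The pancreas arrays had the lowest 75th percentiles before scaling (121, 90.5 and 68.0, against a median of 1854 over all arrays) and 86 to 108 detected miRNAs. The part of this low signal was not tested. Pancreas therefore carried opposite calls, higher for miR-23 (0.41, adjusted p = 0.00340) and lower for miR-27, but the miR-23 call rested on rat 5 (0.06, 0.96 and 0.18) and without it the log2 difference was 0.11 and did not pass. Parotid gland was near the organ mean for miR-23 (-0.07, 0.06 and -0.02) and low for miR-27 (-0.84, -1.03 and -1.36), and its striated muscle marker sum was 11632, 5854 and 46.8 in the same rats. Pancreas, parotid gland and bone marrow were singled out because they lay off the common line, so the r without pancreas (0.94) or without all 3 (0.96) had to be higher and is given as a description only.

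Among all letter pairs of the background, the SD of the difference over organs was 0.89 for miR-27 and 0.78 for miR-23, ranked 15 and 17 of 45 and above the median of 0.68. It was largest for miR-146a and miR-146b (1.50), miR-99a and miR-99b (1.27) and miR-181b and miR-181c (1.20). It was smallest for let-7a and let-7f (0.24), let-7b and let-7c (0.28) and let-7d and let-7f (0.30). Both values of the members thus lay inside the range of the other letter pairs.

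The second question was how the level of each member differed between organs. Every member differed (limma's moderated F test, 5 of 5 at adjusted p of at most 5.12e-48), as did 100% of the 345 miRNAs tested. The SD over organ means was 0.80 for miR-23a, 0.74 for miR-23b, 0.54 for miR-24, 0.85 for miR-27a and 0.63 for miR-27b on the log2 scale, against a median of 1.16 over the 144 miRNAs detected on at least 50% of arrays. That the members lay under the median depended on the scaling, to which they contribute. With the 75th percentile over all miRNAs miR-23a (1.44) and miR-27a (1.45) lay above the median of 1.36. In the deposited normalized table they lay barely above it (1.315 and 1.312 against 1.308). With the members left out of the scaling all 5 lay between 0.74 and 1.02, under the median of 1.17. Neighbouring organs in the order of levels were seldom apart. Of the 54 neighbouring pairs per member, the 3 arrays of one organ lay wholly above those of the next in 0 pairs for miR-23a and miR-27b, 1 for miR-27a, 2 for miR-24 and 3 for miR-23b.

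**Figure D4:**
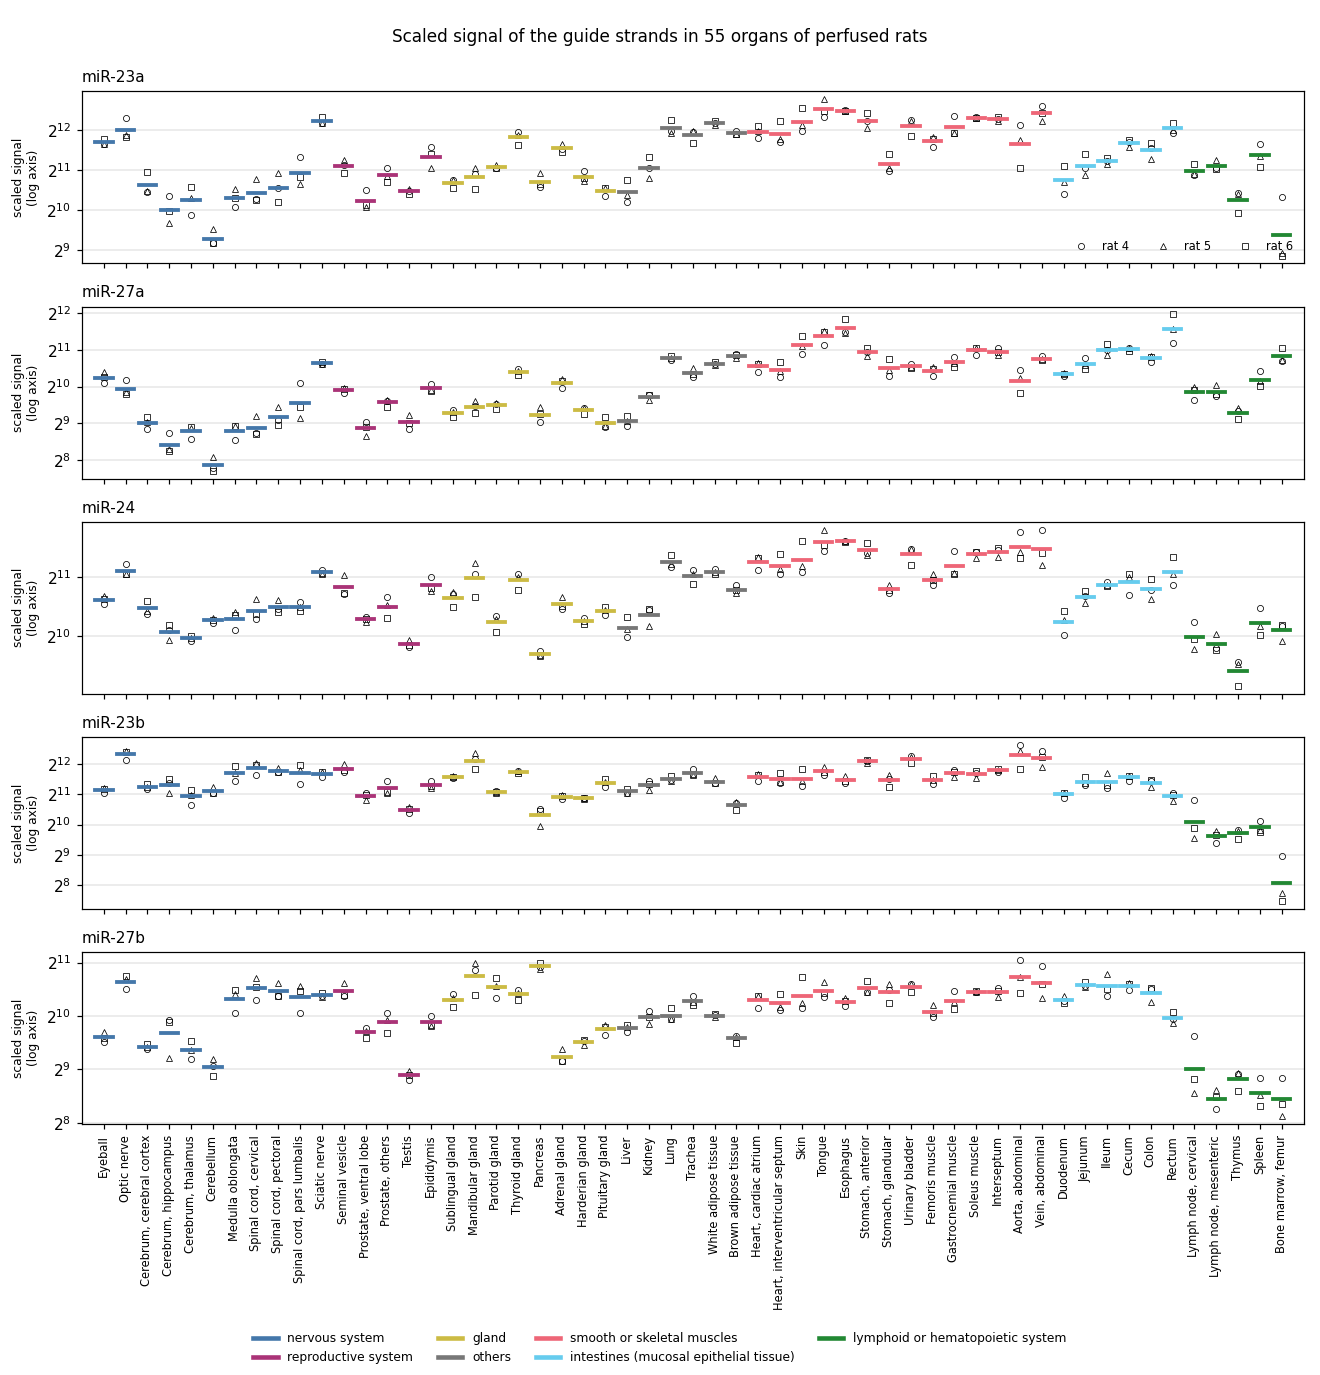
Scaled signal (log axis) of the 5 members in 55 organs of perfused rats, in a panel per member. Symbols are single rats and coloured bars are the means of log2 values, with colour giving the organ class. On the log2 scale and under the scaling used, cerebellum is the lowest organ for miR-23a and miR-27a. The lowest organ is thymus for miR-24 and bone marrow for miR-23b and miR-27b.

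miR-23a signals ran from 463 to 6956, with a median of 2477. They were highest in tongue (5090, 6956 and 5630), esophagus (5764, 5716 and 5658) and abdominal vein (6192, 4784 and 5496). The lowest were in cerebellum (578, 729 and 573), bone marrow (1272, 487 and 463) and hippocampus (1310, 817 and 997). The arrays of the 3 high organs, picked by rank, all lay above those of the 3 low ones, which is again a description only. Cerebellum differed from the mean of the other organs by a log2 difference of -2.03 (SE 0.14, adjusted p = 1.58e-25 by the limma contrast).

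miR-27a signals ran from 209 to 3989, with a median of 1192. They were highest in esophagus (2872, 2824 and 3663), rectum (2319, 3046 and 3989) and tongue (2244, 2911 and 2842), and lowest in cerebellum (218, 272 and 209), hippocampus (423, 315 and 303) and thalamus (381, 471 and 474). Under the scaling used, both a-cluster members thus had cerebellum as their lowest organ mean, and tongue and esophagus among their 3 highest. The place of cerebellum depended on the scaling. Under the other scalings the miR-23a log2 difference was -2.30 to -1.96 in cerebellum and -2.31 to -2.22 in bone marrow. That of miR-27a was -2.50 to -2.13 in cerebellum and reached -2.68 in thalamus and -2.63 in hippocampus. Cerebellum was therefore not the lowest under every scaling for either member.

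miR-23b signals ran from 178 to 6307, with a median of 2736. They were highest in optic nerve (4506, 5528 and 5325), abdominal aorta (6307, 5497 and 3654) and abdominal vein (5500, 3820 and 4758). They were lowest in bone marrow (495, 215 and 178), mesenteric lymph node (673, 883 and 802) and thymus (904, 889 and 730). Without rat 4, the contrast of miR-23b in optic nerve was 1.16, against 1.07 with it. Bone marrow lay 17.4-fold below abdominal aorta in mean signal, the widest span among the 5 members, and its 3 arrays lay under every array of the other organs named here.

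miR-27b signals ran from 278 to 2118, with a median of 1207. They were highest in pancreas (1943, 1894 and 2026), mandibular gland (1850, 2024 and 1342) and abdominal aorta (2118, 1696 and 1386), and lowest in bone marrow (458, 278 and 326), mesenteric lymph node (304, 393 and 359) and spleen (456, 369 and 317). The place of pancreas depended on the scaling: against the other organs its log2 difference was 0.93 (adjusted p = 2.28e-13), but -1.75 with the 75th percentile over all miRNAs and -1.03 in the deposited normalized table.

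miR-24 signals ran from 567 to 3591, with a median of 1689, and had the narrowest span (4.57-fold between organ means). They were highest in esophagus (3141, 3132 and 3101), tongue (2801, 3591 and 3009) and abdominal aorta (3503, 2758 and 2583). They were lowest in thymus (751, 738 and 567), pancreas (858, 807 and 816) and testis (900, 979 and 921). The order of these 3 depended on the scaling: the log2 difference of pancreas was -1.03 here and -3.71 to -1.22 under the others, that of testis -0.85 and -2.16 to -1.16, and that of thymus -1.32 and -1.80 to -1.58. Its high organs were thus shared with the a cluster (esophagus, tongue) and the b cluster (aorta).

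Over single organs 217 of 275 contrasts of a member passed the threshold, against a background of 76.9% (24.8% higher and 52% lower), so the count was near that of all miRNAs. Higher and lower organs numbered 23 and 21 for miR-23a, 26 and 20 for miR-27a, 21 and 14 for miR-23b, 30 and 17 for miR-27b and 22 and 23 for miR-24. For organ classes 29 of 35 contrasts passed, against 90.5% of all. Here and below these contrasts include a set of abdominal aorta and vein and leave out the class others. The SE and p of a class contrast come from the scatter of rats within organs. They do not measure how far the organs of a class differ from each other.

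As a mean of the 14 smooth or skeletal muscle organs, all 5 members were higher than in the other organs. Of all miRNAs tested, 17.7% were called higher in this class and 77.1% lower. The log2 difference was 1.07 (SE 0.04) for miR-23a, 0.99 (SE 0.03) for miR-27a, 0.84 (SE 0.03) for miR-24, 0.65 (SE 0.04) for miR-23b and 0.53 (SE 0.03) for miR-27b, with adjusted p of at most 3.54e-30. The direction held under the 4 other scalings, with larger values: 1.39 to 2.01 for miR-23a, 1.28 to 1.93 for miR-27a, 1.05 to 1.78 for miR-24, 0.91 to 1.60 for miR-23b and 0.80 to 1.47 for miR-27b. Single organs of the class were called higher in 13 of 14 for miR-23a, miR-24 and miR-27a, 12 for miR-27b and 9 for miR-23b. None was called lower. Abdominal aorta and abdominal vein belong to these 14 organs and were also tested as a set. The other muscle organs were among those it was compared with. All 5 members were higher in the set (10.7% of all called higher and 73.9% lower), by 1.01 for miR-23b, 0.78 for miR-23a, 0.82 for miR-24, 0.69 for miR-27b and 0.43 for miR-27a. Alone, aorta did not pass for miR-27a (0.12, adjusted p = 0.295), and vein had 0.73. Under the other scalings the joint values were also larger and ran up to 2.58, 2.35, 2.39, 2.25 and 2.00 in the same order. The smooth muscle markers miR-143 and miR-145 summed to 11137 in vein and 14017 in aorta, against a median of 1534 elsewhere, and the endothelial markers miR-126 and miR-126* to 1804 in vein and 281 in aorta, against 620. Their part in the members' levels was not tested.

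In the lymphoid or hematopoietic organs the b members were lower by log2 differences of -1.97 (SE 0.06, 3.92-fold) for miR-23b and -1.50 (SE 0.05, 2.84-fold) for miR-27b. miR-24 had -0.87 (SE 0.04) and miR-23a -0.73 (SE 0.07), and miR-27a did not pass (-0.05, SE 0.05, adjusted p = 0.291). Single organs of the class were called lower in 5 of 5 for miR-23b, miR-27b and miR-24, although miR-24 in spleen (-0.49) turned to 0.14 over all miRNAs. The miR-23a calls were bone marrow (-1.94), thymus (-1.05) and cervical lymph node (-0.31, a value that turned to 0.0026 in the deposited table), while spleen (0.09) and mesenteric lymph node (-0.17) did not pass. The miR-27a calls were in opposite directions, higher in bone marrow (0.79) and lower in thymus (-0.78), and 3 organs did not pass. Of all miRNAs tested, 60.3% were called lower there and 30.7% higher. Bone marrow weighed on these values: without it miR-23b had -1.62, miR-23a -0.42 and miR-27a -0.26, which passed. Under the other scalings miR-27a lay between -0.29 and 0.08. Without the 3 arrays of rat 4 that stood apart, miR-23b had -2.05, miR-27b -1.57, miR-23a -0.71 and miR-27a -0.02. In the nervous system, where 53.9% of all were called lower and 41.4% higher, the order was turned. miR-27a had -1.05 (SE 0.03, 2.07-fold lower), miR-23a -0.65 (SE 0.05) and miR-24 -0.28 (SE 0.03), miR-27b did not pass (-0.05, adjusted p = 0.199), and miR-23b was higher by 0.32 (SE 0.04), a direction that turned to -0.48 with the 75th percentile over all miRNAs and to -0.30 in the deposited table. Over the other scalings miR-27b lay between -0.85 and 0.05, and it also passed as lower without bone marrow (-0.08). Those of miR-27a ran to -1.85, of miR-23a to -1.45 and of miR-24 to -1.08. Single nervous organs went against the class: miR-23a was called higher in sciatic nerve (0.96), optic nerve (0.74) and eyeball (0.43, but -0.36 over all miRNAs and -0.29 in the deposited table), miR-27a in sciatic nerve (0.60) and miR-24 in sciatic nerve (0.39) and optic nerve (0.41), while miR-23b was called lower in thalamus (-0.35). All 11 organs were called for miR-27b, with 6 higher (up to 0.64 in optic nerve) and 5 lower (down to -0.99 in cerebellum), and 4 of the 6 higher calls, in medulla oblongata and the spinal cord, turned over all miRNAs and in the deposited table. Without the 3 arrays of rat 4 the class values were -1.09 for miR-27a, -0.68 for miR-23a, -0.29 for miR-24, -0.02 for miR-27b and 0.35 for miR-23b.

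In the intestines, sampled as mucosal epithelium, miR-27a was higher by 0.94 (SE 0.04, and 0.45 to 0.93 under the other scalings) and miR-27b by 0.42 (SE 0.05), although miR-27b turned to -0.038 with quantile normalization and to -0.065 in the deposited table. Of all miRNAs tested, 35.9% were called higher there and 57.1% lower. The members of the miR-23 family and miR-24 did not pass (0.12, 0.0096 and 0.06 for miR-23a, miR-23b and miR-24), and their single-organ calls ran in both directions. miR-23a was called higher in rectum (0.78) and cecum (0.41) and lower in duodenum (-0.55), and miR-24 likewise (0.38, 0.22 and -0.48). miR-23b was called lower in rectum (-0.34) and duodenum (-0.28) and higher in cecum (0.29). The 3 cecum calls and that of miR-23b in rectum turned over all miRNAs and in the deposited table. Without rat 4 miR-23a (0.17) and miR-24 (0.13) passed as higher, miR-23a also without only the 3 arrays that stood apart (0.13), and in the deposited table all 3 were called lower (-0.37, -0.48 and -0.42). In the reproductive organs all 5 were lower (48.7% of all called lower and 36.8% higher), from -0.13 for miR-23b (adjusted p = 0.0348) to -0.64 for miR-27a. Seminal vesicle went against the class, with calls higher for miR-23b (0.58) and miR-27b (0.45). The miR-23b call was lost without rat 5 (-0.12) or rat 6 (-0.11) and stood at -0.19 without bone marrow and at -0.44 to -0.31 under the other scalings. In glands, where 42% of all were called lower and 47.2% higher, miR-27a (-0.59), miR-23a (-0.32) and miR-24 (-0.28, and -0.17 without pancreas) were lower. There miR-23b did not pass (-0.03), although it was called higher without pancreas (0.10), and lower without bone marrow (-0.10) and under the 4 other scalings (-0.59 to -0.15), whereas miR-27b was higher by 0.18, a value that fell to 0.08 and did not pass without pancreas and turned to -0.38 with the 75th percentile over all miRNAs and to -0.22 in the deposited table. The lower values grew under the other scalings, to -1.16 for miR-27a, -0.89 for miR-23a and -0.84 for miR-24. Thyroid went against the class for these 3 (0.36, 0.56 and 0.25), as did mandibular gland for miR-24 (0.28), and for miR-27b adrenal gland (-0.81), Harderian gland (-0.52) and pituitary gland (-0.27) were called lower. Single glands were called for miR-23b in both directions, 3 higher (up to 0.85 in mandibular gland) and 3 lower (down to -0.98 in pancreas).

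Outside the members, the miRNAs with the most similar profiles over 55 organ means were the same 3 for both a-cluster members. These were miR-199a-3p, miR-214 and miR-199a-5p, with r of 0.73, 0.65 and 0.63 for miR-23a and 0.65, 0.62 and 0.64 for miR-27a. For miR-24 they were the striated muscle miRNAs miR-133b (0.63) and miR-1 (0.58), followed by miR-199a-3p (0.56). For the b-cluster members these r were lower. miR-23b had 0.44 with miR-22*, 0.43 with let-7c and 0.43 with miR-133b, and miR-27b had 0.41 with miR-133b, 0.39 with miR-152 and 0.36 with miR-320. The median r between any 2 of the 144 miRNAs was 0.04. By the SD of the difference, which needs no scaling, the closest miRNAs outside the members were let-7b for miR-27b (0.65), miR-26a for miR-24 (0.66), let-7c for miR-23b (0.70), and miR-26b for miR-23a and miR-28 for miR-27a (0.86 each).

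The third question was whether blood left in the organ moves the members. Of 25 contrasts of a member in the 5 organs sampled both ways, 0 passed in limma and 0 had an unadjusted p under 0.05. Of the 191 miRNAs tested in each organ, 0% passed. The study describes the blood cell miRNAs miR-451 and miR-144 as clearly seen without perfusion and not after it. With 0 miRNAs called in any organ, the contrast was not shown to detect blood. Its 0 calls for the members therefore do not answer the question. With the change compared between the 5 organs (limma interaction), 0 miRNAs passed, and 4 had an unadjusted p under 0.05. The log2 differences of perfused minus not perfused rats lay between -0.09 and 0.24, with SE of 0.11 to 0.16. The highest was that of miR-23a in liver, with 1163, 1318 and 1730 in perfused rats and 1031, 1225 and 1280 in rats that were not perfused (adjusted p = 0.862 by limma), and the ranges overlapped. In lung miR-24 had 2301, 2404 and 2659 against 2273, 2380 and 2382. Perfused and not perfused ranges overlapped in all 25 cases, whereas of all miRNAs tested 6.81% did not overlap in liver, 3.66% in kidney, 7.85% in lung, 4.19% in the atrium and 3.14% in the septum. An exact two-sided permutation test of 3 rats against 3 cannot go below p = 0.1, and its lowest value over the members was 0.2. Conditions were mostly hybridised on different slides, and 1 slide held both. Rat 4 was scanned on the same day as rats 1 to 3 in these organs, and its differences from their mean lay between -0.19 and 0.19. For a minus b, the changes lay between -0.06 and 0.25, and 2 of 10 did not overlap, both of miR-27 (kidney 0.24 and the septum -0.06), where 22.7% of all letter-pair differences did not overlap.

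**Figure D5:**
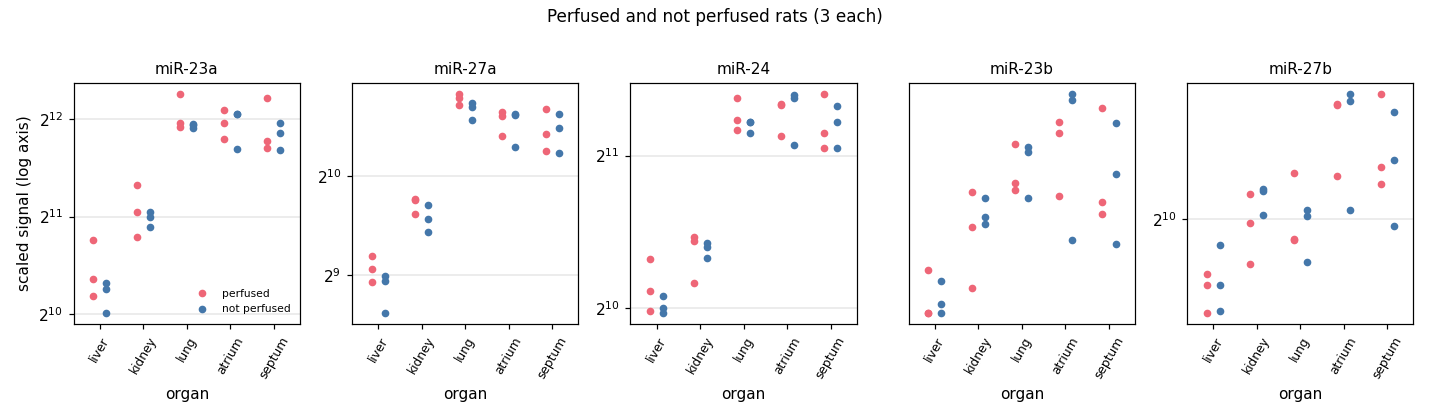
Scaled signal (log axis, a scale per panel) of the 5 members in liver, kidney, lung, heart atrium and heart septum (x axis) of perfused and not perfused rats, with each dot 1 rat. Perfused and not perfused rats overlap in each organ for each member.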

How the data were processed

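Total RNA of 180 organ samples was labelled with Cy3 and hybridised to 1-colour Agilent rat miRNA arrays. Per the labels, images were read with Agilent Feature Extraction 10.7.3. The authors deposited processed intensities, which the scanner software had corrected for background, spot by spot, together with a normalized table of intensities (75th percentile). Here the deposited spot intensities were used. Outlier spots were dropped, spots were averaged per probe sequence and probe sequences per miRNA. Because few miRNAs were detected, scaling used only the 37 miRNAs found on every array, all 5 members among them. Their 75th percentile was brought to 2118 on each array, so a member that is itself at that percentile reads 2118. A floor of 7.02 was applied, then log2. Detection required more than 50% of a miRNA's spots well above background, and a miRNA was tested when detected on all 3 arrays of an organ (345 miRNAs, and 191 for perfusion). Arrays give no counts, so their number (3 per group) limits the precision.

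Tests used limma 3.58.1 in R 4.3.3, with Benjamini-Hochberg adjustment at 0.05 over all miRNAs (or all letter pairs) and all contrasts of a kind, or within each organ for perfusion. The code was tested on simulated data. Exact tests used scipy 1.17.1. Same-numbered arrays came from the same rat. Their residuals correlated at 0.03 to 0.07 on average within a rat and at -0.03 between rats. For 8 arrays the labels gave 2 rat numbers, and the one in the title was used. The named miRNAs were the members, their passenger strands, the 3 others most like each member, the markers, and the 3 letter pairs with the largest and the smallest SD. The 3 highest and lowest organs were named per member and difference, and the other organs named were chosen after their values were seen. The members, lists and tests were chosen with earlier results of these data known. The bases of the probes were not in the files used here, so reading of an a member by the probe of its b counterpart, 1 base apart, was not tested.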

Additional observations from a re-analysis of the deposited data

How the results depend on the processing

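Scaling, quantile normalization, the deposited table, background correction by normexp, probe summary, floor, filters, slide, scan day and sets of arrays were varied. All counts of calls stayed within 1.5 times: 183 to 228 of 275 for single organs, 28 to 33 of 35 for organ classes, 36 to 44 of 55 organs for miR-23, 37 to 44 for miR-27 and 0 for perfusion. Leaving out 1 rat gave 183 to 211, 28 to 31, 36 to 39, 37 to 42 and 0, with the F tests at 5 and 2 throughout and the correlation of both differences at 0.87 to 0.90. With rat as a replicate block the counts were 217, 29, 40 and 42, with no call changed. That correlation (SD over rats 0.025) moved to 0.82 with quantile normalization, 0.93 with normexp, 0.86 for 1 of 16 probe combinations, 0.94 without pancreas and 0.96 without pancreas, parotid gland and bone marrow.

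Levels depended on the scaling. Relative to the scaling used, the 75th percentile over all miRNAs moved the median contrast of an organ by -2.41 (pancreas) to 0.93 (lung), and changed the direction of 21 of 217 called member contrasts. Quantile normalization changed 5, normexp 1 and the deposited values 25. Leaving the members out of the scaling changed 0, and raised miR-23a in tongue from 1.26 to 1.90 and miR-24 there from 0.92 to 1.56. Under at least 1 of the 4 other scalings 29 of the 217 turned, and those named in the report are marked there. Among the 3 highest and 3 lowest organs of each member and the organ classes, the called values that turned were miR-27b in pancreas (-1.75 over all miRNAs, -1.03 in the deposited table), miR-23b in the nervous system (-0.48 and -0.30), miR-27b in glands (-0.38 and -0.22) and miR-27b in the intestines (-0.038 with quantile normalization, -0.065 in the deposited table). Values that had not passed also turned, in the intestines for miR-23a, miR-23b and miR-24, in lymphoid organs for miR-27a and in the nervous system for miR-27b. A factor per array cannot move a minus b. Of its 82 calls, 72 held under quantile normalization, which can, and 81 under normexp. Raw signal was low in pancreas and bone marrow, with 75th percentiles before scaling of 121, 90.5 and 68.0 and of 925, 613 and 504 in rats 4, 5 and 6. The median over all arrays was 1854. The part of this low signal in the values there was not tested. Normexp used the median spot signal, since the planned mean signal was not in the files used here, and this choice, like leaving out bone marrow, pancreas with parotid gland and bone marrow, single probes and the 3 arrays of rat 4, was made after seeing the data. Slide as a random block was not run for the correlation of both differences.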
